A study of Homo sapiens with 6 samples.

Results

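EGR and KLF proteins are zinc-finger transcription factors, of which several are immediate early genes, switched on within minutes of a growth, stress or cytokine signal without new protein synthesis. The 10 genes listed for this account were EGR1, EGR2, EGR3, KLF2, KLF4, KLF5, KLF6, KLF9, KLF10 and KLF11. They were chosen by name, with earlier results of these data known. A probe set was a member when the platform annotation named only 1 of them. Of 49293 probe sets on the array that are not controls, 31 were members, and they measured 9 of the 10 genes. EGR2 expression was not analysed here.

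The samples were U87, a human glioblastoma cell line, and their messenger RNA was read on 1-colour arrays. Group miR-151a (labelled miR-151a UP) overexpressed the microRNA miR-151a and group miR-NC the control microRNA, with 3 samples in each, numbered 1 to 3. No source used here gives the vector, the arm of miR-151a, the time after its introduction or whether samples were separate cultures, and p-values therefore reflect the spread over these 6 samples, possibly only a technical one. Of 8 glial and glioma markers, VIM, CD44, CHI3L1 and NES lay above the median level of the arrays, GFAP and OLIG2 close to it, and SOX2 and S100B below it, with S100B at 19.2 ± 2.43 (SD, n = 3) and 19.0 ± 1.34 (SD, n = 3) against array medians of 57.1 to 58.6.

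The EGR proteins are best known from growth factor and stress signalling. Kinases of the ERK pathway act on serum response factor (SRF) and its ELK partners at CArG boxes in the EGR1 promoter, and the EGR1 protein induces its own co-repressor NAB2. KLF proteins bind GC-rich and CACCC elements. KLF5 favours proliferation in many epithelia. KLF10 and KLF11 are repressors induced by TGF-beta, KLF2 and KLF4 are linked to quiescence and to the ERK5 and MEF2 pathway, and KLF9 is induced by glucocorticoid and thyroid hormone.

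The start-site sequences of a gene that rose, EGR1, of another that rose, KLF5, and of the gene that fell, KLF2, are shown because published control of EGR1 and KLF2 runs through elements of this window. Each is the 250 bases before the start site on the sense strand, from RefSeq on GRCh38.p14, at chr5:138465229-138465478 (plus strand) for EGR1, chr13:73058755-73059004 (plus strand) for the downstream of 2 KLF5 start sites, and chr19:16324576-16324825 (plus strand) for KLF2. Capitals mark CArG boxes of SRF in EGR1 and a MEF2 site in KLF2. Neither was found in KLF5, which is wholly in lower case.
EGR1: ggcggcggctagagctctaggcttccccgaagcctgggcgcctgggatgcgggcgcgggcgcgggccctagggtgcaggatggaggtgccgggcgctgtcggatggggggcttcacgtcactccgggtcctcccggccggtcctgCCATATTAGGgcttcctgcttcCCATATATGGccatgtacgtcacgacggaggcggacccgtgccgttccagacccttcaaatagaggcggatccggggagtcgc
KLF5: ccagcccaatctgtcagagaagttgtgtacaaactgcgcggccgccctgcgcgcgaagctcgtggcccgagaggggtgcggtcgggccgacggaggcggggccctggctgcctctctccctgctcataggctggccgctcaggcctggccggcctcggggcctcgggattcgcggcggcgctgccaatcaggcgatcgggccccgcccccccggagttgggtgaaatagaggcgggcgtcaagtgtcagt
KLF2: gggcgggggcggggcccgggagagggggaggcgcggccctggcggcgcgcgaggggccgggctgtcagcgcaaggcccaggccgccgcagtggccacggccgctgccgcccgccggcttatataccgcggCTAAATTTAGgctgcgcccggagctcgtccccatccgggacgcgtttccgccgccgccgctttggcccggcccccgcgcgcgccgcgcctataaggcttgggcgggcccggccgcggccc
The EGR1 window held 2 CArG boxes, ending 95 and 73 bases before the start site, and 1.16% of the 35116 RefSeq promoter windows of the same length held at least 1. The KLF2 window held 1 MEF2 site, ending 110 bases before the start site, against 0.515% of all windows. EGR3 and KLF10 were left out of the search, and the other 8 of the 10 listed genes had 12 windows in all. They include 3 windows of EGR2, of which 1 held a CArG box, ending 61 bases before its start site. The EGR1 window also held 2 matches to CGTCA, the core of a cAMP response element, found in 21.2% of all windows, and the downstream KLF5 window held 1. KLF4, KLF11 and EGR2 each had 1 window with 2 matches, so the site was not particular to genes that rose. The letters TGANTCA (an AP-1 site, 6.57% of all windows), TGATGNAAN (an ATF4 and C/EBP composite site, 3.13%) and an NF-kB site (5.21%) were in none of the 12 windows. An EGR site, GCGNGGGCG (8.4% of all windows), had 1 match each in the windows of EGR1, KLF2, KLF4 and KLF6. A GC box, GGGCGG (42.6%), was in windows of EGR2, KLF2, KLF4, KLF5, KLF6 and KLF11, but not of EGR1 or KLF9. A TATA box, TATAAA (10.7%), was found only in the upstream KLF5 window. All motifs were searched on both strands. A match is a description of the letters, and no binding was measured.

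EGR1, KLF5 and KLF10 rose 1.94-, 1.90- and 1.93-fold with miR-151a at their brightest probe sets, KLF6 rose and KLF2 fell by small amounts, and EGR3, KLF4, KLF9 and KLF11 did not pass. Of the 31 member probe sets, 11 rose and 1 fell at a limma p under 0.05 after Benjamini-Hochberg adjustment, and 19 did not pass. Of all 49293 probe sets, 6.81% rose and 7.27% fell by that rule. The 11 rises were 4 of 6 probe sets for EGR1, 3 of 3 for KLF5, 2 of 2 for KLF10 and 2 of 5 for KLF6, and the fall was 1 of 2 for KLF2. No probe set of EGR3 (of 4), KLF4 (of 2), KLF9 (of 4) or KLF11 (of 3) passed in limma, and 4 of these 13, all higher, had an unadjusted p under 0.05, as did 12.9% of all probe sets in that direction and 15.2% in the other. The median log2 fold change was 0.13 over the member probe sets and -0.01 over all probe sets. The log2 fold change is the difference of the group means of log2(intensity + 1), miR-151a minus miR-NC. A rise of at least 1.5-fold was found for 8 member probe sets, all of EGR1, KLF5 or KLF10, and for 1.08% of all probe sets. The 3 samples with miR-151a lay above all 3 with miR-NC for 14 member probe sets and below them for 1, beside 15.3% and 18.6% of all probe sets.

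**Figure D1:**
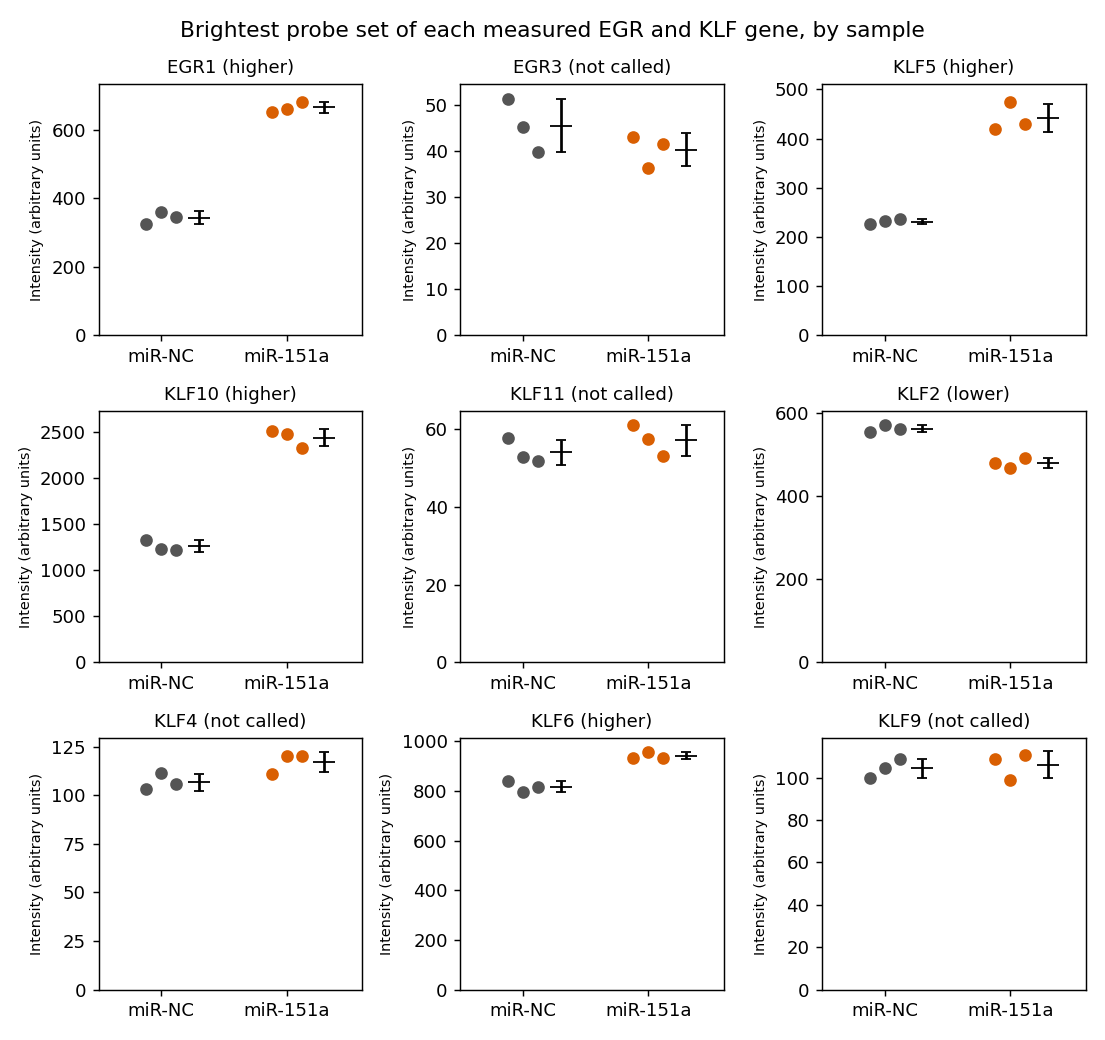
Intensity of the brightest probe set of each of the 9 measured genes in 3 miR-NC samples (grey) and 3 miR-151a samples (orange), with mean and SD beside the points; every axis starts at 0. The groups are far apart for EGR1, KLF5 and KLF10, apart by less for KLF6 (higher) and KLF2 (lower), and overlap for EGR3, KLF4, KLF9 and KLF11.

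EGR1, an activator of growth and wound response genes and the best studied member of its family, rose in most of its probe sets. Its brightest probe set, 11754334_s_at, had intensities of 652, 661 and 681 in miR-151a samples 1, 2 and 3 and of 323, 361 and 346 in miR-NC samples 1, 2 and 3. Every miR-151a sample was above every miR-NC sample by a wide margin, and neither group was spread by more than a small part of the gap. The group means were 665 ± 15.0 (SD, n = 3) and 343 ± 18.8 (SD, n = 3), a 1.94-fold rise (log2 fold change 0.95, SE 0.06, 95% interval 0.82 to 1.08, limma adjusted p = 5.2e-05). It ranked 174 among all probe sets ordered from the largest rise. The next probe set, 11717860_a_at, had intensities of 267, 292 and 302 with miR-151a and of 149, 156 and 168 with miR-NC, a 1.81-fold rise (limma adjusted p = 0.00023). The one after it, 11752940_a_at, had 221, 194 and 205 against 127, 127 and 137, a 1.58-fold rise (limma adjusted p = 0.00069). Both repeat the order of the groups seen in the brightest probe set.

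The 3 EGR1 probe sets below the median level of the array gave smaller differences that did not agree. Probe set 11717862_x_at rose 1.29-fold, at 54.9 ± 4.53 (SD, n = 3) against 42.4 ± 1.59 (SD, n = 3; limma adjusted p = 0.012), though with no variance shrinkage the adjusted p rose to 0.069. Probe set 11717861_a_at had intensities of 51.4, 45.5 and 57.4 with miR-151a and of 37.4, 48.2 and 30.9 with miR-NC, and its log2 fold change of 0.41 did not pass (limma adjusted p = 0.11), with 1 control sample, miR-NC 2, inside the range of the other group. The adjusted p in limma was 0.025 when that sample was left out, and 0.019 with a variance trend and robust fit together. Probe set 11751643_x_at showed no separation at all, with 50.9, 50.4 and 55.7 against 52.4, 54.9 and 45.6, and the 95% interval of its log2 fold change, 0.04, reached from -0.14 to 0.22. The suffix _a_at marks probes shared by transcripts of a gene. The suffix _s_at marks probes shared by several transcripts, possibly of more than 1 gene, and _x_at marks probes that may cross-hybridize. The EGR1 log2 fold change therefore ran from 0.04 to 0.95 by probe set. The 3 rises of 0.66 or more came from its 3 brightest probe sets, and what sets these sizes apart was not tested.

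EGR3, induced by many of the same signals as EGR1, did not pass in any of its 4 probe sets, which all lay below the median level. The brightest, 11736342_at, had intensities of 43.1, 36.3 and 41.4 with miR-151a and of 51.3, 45.3 and 39.8 with miR-NC, so that the groups overlapped. Its log2 fold change was -0.17 with a 95% interval from -0.40 to 0.06. The other probe sets lay at -0.06, 0.25 and 0.08, of which the one at 0.25 (11751567_a_at) had an interval from 0.03 to 0.48 and an adjusted p of 0.14 in limma. With the mean over its 4 probe sets EGR3 lay at 0.03 (adjusted p = 0.81 over genes in limma).

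KLF5, an activator that promotes growth and binds GC-rich promoters, rose in each of its 3 probe sets, all above the median level. Probe set 11744572_a_at had intensities of 420.4, 475 and 429.9 with miR-151a and of 226, 231 and 236 with miR-NC. The miR-NC samples lay within a narrow band, and the lowest miR-151a sample was far above it. The rise was 1.90-fold, at 442 ± 29.1 (SD, n = 3) against 231 ± 5.19 (SD, n = 3; log2 fold change 0.93, SE 0.06, limma adjusted p = 8.4e-05). Probe set 11748762_x_at had 153, 155 and 159 against 87.6, 83.6 and 84.2, a 1.82-fold rise (limma adjusted p = 3.6e-05). Probe set 11748761_a_at had 152, 134 and 161 against 72.8, 80.2 and 79.2, a 1.91-fold rise (limma adjusted p = 0.00030). The 3 KLF5 estimates lay between 0.86 and 0.93 on the log2 scale, each inside the 95% intervals of the others. Probe sets of 1 gene share the same RNA and are not replicates.

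KLF10, the TGF-beta-inducible early gene, gave the largest change among the members. Probe set 11743682_s_at had intensities of 2279, 2226 and 2125 with miR-151a and of 1169, 1104 and 1088 with miR-NC. Means were 2209.8 ± 78.5 (SD, n = 3) and 1120.4 ± 42.9 (SD, n = 3), a 1.97-fold rise (log2 fold change 0.98, SE 0.05, 95% interval 0.85 to 1.10, limma adjusted p = 3.4e-05). The other, 11733068_s_at, had 2509.5, 2474 and 2330.5 against 1332, 1234 and 1215, a 1.93-fold rise (limma adjusted p = 6.1e-05). In both probe sets the lowest miR-151a sample was far above the highest miR-NC sample. With 1 value per gene, EGR1, KLF10 and KLF5 ranked 84, 86 and 94 among 18132 genes ordered from the largest rise.

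KLF11, the closest relative of KLF10 and like it a repressor that recruits SIN3A, did not pass in limma in any of its 3 probe sets. Its probe sets lay below the median level. Probe set 11727144_a_at had intensities of 61.0, 57.4 and 53.0 with miR-151a and of 57.7, 52.8 and 51.7 with miR-NC, which overlapped, and a log2 fold change of 0.08 (95% interval -0.08 to 0.24). Probe set 11727145_s_at was higher in all 3 miR-151a samples, at 56.3, 47.2 and 61.2 against 43.2, 45.6 and 43.2, with a log2 fold change of 0.31 and an adjusted p of 0.060 in limma. That adjusted p was 0.050, 0.043 and 0.020 with a pseudocount of 32, without dim probe sets and with a variance trend and robust fit together, and 0.012 without miR-151a replicate 2. The probe set of KLF11 at the bottom of the array, 11747833_a_at, had values from 5.24 to 6.81 and no separation. With the mean over its 3 probe sets KLF11 was higher by 0.15 on the log2 scale and passed (adjusted p = 0.045 over genes in limma), while its brightest probe set in that gene fit did not (adjusted p = 0.51). In each sample the log2 difference between KLF10 (11743682_s_at) and KLF11 (11727144_a_at) was taken: with miR-151a it was 5.25 ± 0.05 (SD, n = 3), against 4.35 ± 0.03 (SD, n = 3) for miR-NC, and the groups did not overlap (exact permutation test, two-sided, p = 0.1, the smallest that 3 samples against 3 allow). This pair and 3 others were chosen after their values were seen, so the tests only describe differences already known. Each of the 4 exact permutation tests gave p = 0.1, also when adjusted over the 4. The other pairs set EGR1 11754334_s_at against 11751643_x_at, KLF5 against KLF4, and KLF6 11716093_a_at against 11760125_a_at.

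**Figure D2:**
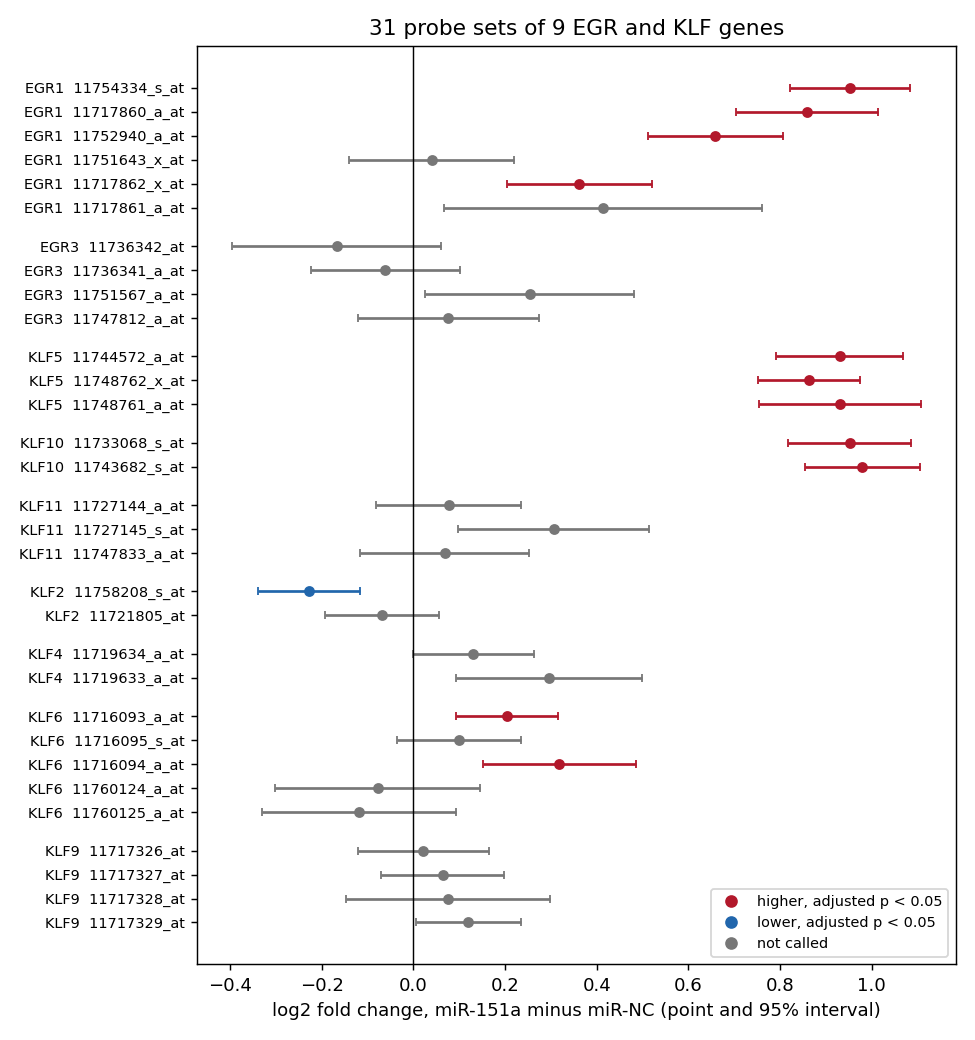
Log2 fold change, miR-151a minus miR-NC, with its 95% interval for each of the 31 member probe sets, ordered within a gene from the brightest; red and blue mark adjusted p under 0.05. The KLF5 and KLF10 estimates cluster between 0.86 and 0.98, those of EGR1 run from 0.04 to 0.95, and KLF2 holds the 1 blue point.

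KLF2, a factor of quiescent endothelium and lymphocytes and a target of the ERK5 and MEF2 pathway, was the 1 member that fell. Its brightest probe set, 11758208_s_at, had intensities of 481, 468 and 492 with miR-151a and of 555, 572 and 561 with miR-NC. The 3 values with miR-151a were all below the 3 with miR-NC. The mean was 480.3 ± 12.4 (SD, n = 3) against 563 ± 8.71 (SD, n = 3), a change of -14.6% (log2 fold change -0.23, SE 0.05, limma adjusted p = 0.018). The call was lost in some fits without 1 sample: the adjusted p in limma was 0.056 when miR-151a replicate 2 was left out, 0.070 when miR-NC replicate 2 was, and 0.057 when miR-NC replicate 3 was. The log2 fold change of this probe set stayed between -0.25 and -0.21 over the alternatives, and leaving out 1 sample also lowered the number of calls over all probe sets. Its other probe set, 11721805_at, had 184, 194 and 201 against 196, 204 and 206, with overlap, and a log2 fold change of -0.07 (95% interval -0.19 to 0.06).

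KLF4, a factor of quiescence and of pluripotency that shares its upstream pathway with KLF2, did not pass in either probe set. Probe set 11719634_a_at had intensities of 111, 120.1 and 120.0 with miR-151a and of 103, 112 and 106 with miR-NC, and the interval of its log2 fold change, 0.13, reached from -8.7e-05 to 0.26. Probe set 11719633_a_at had 63.6, 67.5 and 76.0 against 50.2, 60.7 and 57.2, with no overlap, a log2 fold change of 0.30 and an adjusted p of 0.063 in limma, so that it did not pass. Its adjusted p was 0.047 with a pseudocount of 32, 0.045 without dim probe sets and 0.017 with a variance trend and robust fit together. Within samples the log2 difference between KLF5 (11744572_a_at) and KLF4 (11719634_a_at) was 1.91 ± 0.07 (SD, n = 3) after miR-151a, against 1.11 ± 0.06 (SD, n = 3) for miR-NC, with no overlap. This pair was chosen after its values were seen.

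KLF6, an injury-response factor and tumour suppressor known for inducing TGF-beta receptor genes, rose slightly in 2 of 5 probe sets. Probe set 11716093_a_at had intensities of 934, 956 and 934 with miR-151a and of 839.6, 797 and 814 with miR-NC, a 1.15-fold rise (limma adjusted p = 0.027). Probe set 11716094_a_at had 335, 398 and 373 against 305, 281 and 299, a 1.25-fold rise (limma adjusted p = 0.024). A bright one, 11716095_s_at, overlapped between groups at 0.10 on the log2 scale, and the dim ones were at -0.08 and -0.12. Leaving out any of the 6 samples ended the call of 11716093_a_at, with an adjusted p in limma from 0.053 to 0.099. For 11716094_a_at it lay between 0.053 and 0.080 when any sample other than miR-151a replicate 1 was left out, and was 0.105 without variance shrinkage. The mean over the 5 KLF6 probe sets was 0.09 (adjusted p = 0.18 over genes in limma), so the small KLF6 rise depends on the probe set.

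KLF9, an early glucocorticoid and thyroid hormone response gene, did not pass in any of 4 probe sets. Probe set 11717326_at had intensities of 109, 98.9 and 110.5 with miR-151a and of 99.9, 105 and 109 with miR-NC, and its 95% interval ran from -0.12 to 0.16 on the log2 scale. The other 3 lay at 0.06, 0.08 and 0.12. The dimmest, 11717329_at, at 12.2 ± 0.46 (SD, n = 3) against 11.1 ± 0.10 (SD, n = 3), had groups that did not overlap and an adjusted p of 0.16 in limma.

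**Figure D3:**
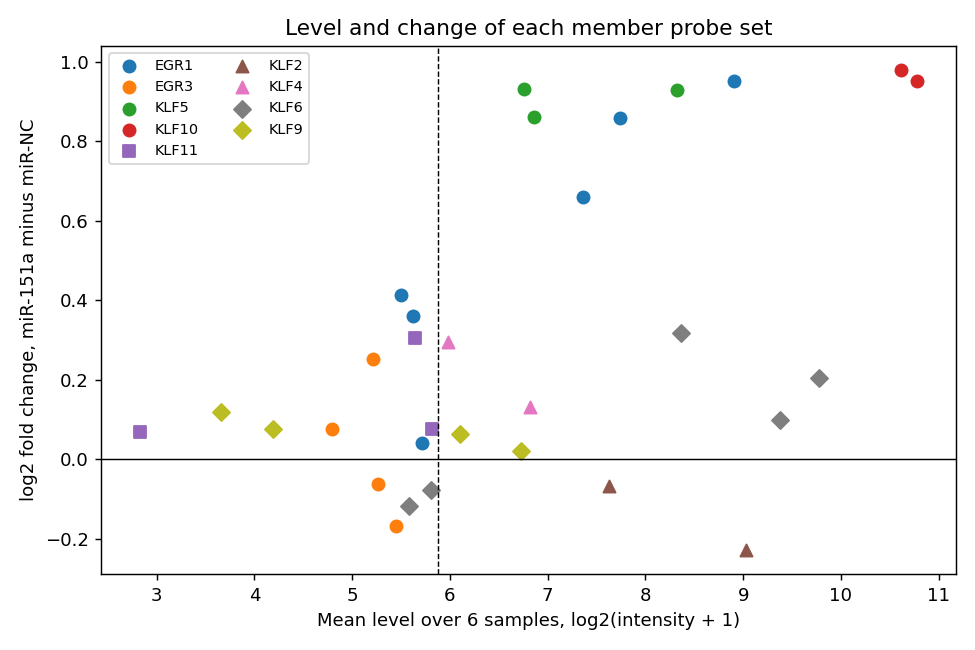
Log2 fold change of each of the 31 member probe sets against its mean log2(intensity + 1) over the 6 samples; colours and symbols mark the gene and the dashed line the array median. The 8 points at 0.66 or more belong to EGR1, KLF5 and KLF10 and lie right of the line, where the KLF2 and bright KLF6 points sit near or below 0.32.

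Among 16 further genes (EGR4, KLF1, KLF3, KLF7, KLF8, KLF12 to KLF17, SP1 to SP4 and WT1), 0 rose and 1 fell in limma with 1 value per gene, beside 7.27% and 8.11% of all 18132 genes; at an unadjusted p under 0.05 the counts were 1 and 2, beside 12.8% and 16% of all genes. The gene that fell was KLF13, a regulator of lymphocyte chemokine expression, at -0.20 (adjusted p = 0.032 in limma), and 2 of its 2 probe sets were lower. Its adjusted p was 0.054 to 0.115 when any sample but miR-NC replicate 1 was left out. The median of the list was -0.03. EGR4 was dim and lay at 0.13 without passing, and KLF7, SP3 and KLF12 lay at 0.0048, 0.06 and -0.06. KLF7 had 2 of 4 probe sets called higher (mean over probe sets 0.14, adjusted p = 0.080 in limma) and KLF12 1 of 6 (mean 0.0061, adjusted p = 0.93). With the mean over probe sets 0 genes of the list rose and 1 fell, beside 8.4% and 9.34% of all genes.

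Among partners and regulators, 2 of 10 co-repressor and turnover genes fell and 0 rose in limma, beside 8.11% and 7.27% of all genes. They were the histone deacetylase gene HDAC1 and the co-repressor gene CTBP1, at -0.20 and -0.19 (adjusted p = 0.023 and 0.041), and at an unadjusted p under 0.05 the list held 0 higher and 2 lower genes, beside 12.8% and 16% of all genes. With the mean over probe sets the counts were also 0 and 2, for the same 2 genes. Of the 4 probe sets of CTBP1, 0 passed over all probe sets. Leaving out any 1 sample ended the call of CTBP1 (adjusted p up to 0.136 in limma), and any but miR-NC replicate 2 that of HDAC1 (0.055 to 0.079). The EGR co-repressor genes NAB1 and NAB2, of which NAB2 is an EGR1 target, lay at -0.04 and -0.10 and did not pass. For NAB1, 1 of 7 probe sets was called higher, and the mean over probe sets lay at 0.07 (adjusted p = 0.25 in limma). SIN3A, the partner of KLF10 and KLF11, was at -0.11 and did not pass. Of 16 measured upstream kinase and transcription factor genes, 1 rose and 0 fell in limma, beside 7.27% and 8.11% of all genes, and at an unadjusted p under 0.05 the counts were 3 and 3, beside 12.8% and 16%. With the mean over probe sets, MEF2A also rose (0.15, adjusted p = 0.037, 1 of 4 probe sets higher) and ELK3 fell (-0.19, adjusted p = 0.013, 1 of 2 lower). The gene that rose in both fits was NR3C1, the glucocorticoid receptor gene, which was 1.20-fold higher at 714 ± 25.4 (SD, n = 3) against 594 ± 6.54 (SD, n = 3; adjusted p = 0.0084 in limma), with 7 of its 10 probe sets called higher. SRF and ELK1, which act on the EGR1 promoter, lay at -0.11 and -0.06 and did not pass.

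Of 15 measured genes reported as targets of these factors, 4 rose and 0 fell in limma, beside 7.27% and 8.11% of all genes. At an unadjusted p under 0.05 the counts were 5 and 2, beside 12.8% and 16% of all genes. ICAM1, an adhesion molecule gene with EGR1 and NF-kB sites, rose 2.16-fold, with means of 179.5 ± 10.4 (SD, n = 3) against 83.0 ± 10.02 (SD, n = 3) and an adjusted p of 0.00034 in limma, and 3 of its 3 probe sets were higher. CDKN1A, the cell cycle inhibitor gene activated by KLF4 and KLF6 among others, rose 1.27-fold (adjusted p = 0.0018 in limma). PDGFA and NOS3 passed at 0.22 and 0.27, but not with the mean over their probe sets, at 0.06 and 0.21 (adjusted p = 0.33 and 0.094). Leaving out any sample but 1 (miR-151a replicate 1 for PDGFA, replicate 2 for NOS3) also ended these calls. PLAU, a protease gene of matrix breakdown, did not pass at its brightest probe set (0.16, adjusted p = 0.061) and did with the mean over probe sets (0.23, adjusted p = 0.0073 in limma), with 2 of 3 probe sets higher. TGFB1, F3, CCND1 and SMAD7 lay at -0.10, -0.05, 0.06 and -0.01 and did not pass in either way. The 2 lower at an unadjusted p under 0.05 were the TGF-beta receptor genes TGFBR1 and TGFBR2, at -0.11 and -0.13 (adjusted p = 0.14 and 0.078 in limma). With the mean over probe sets they lay at 0.07 and -0.05 (adjusted p = 0.44 and 0.47 in limma). For TGFBR1 1 of 3 probe sets was called higher. The list median was -0.01, as over all genes.

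Of 6 measured hormone-induced genes, chosen as companions of KLF9 and KLF10, 2 rose and 1 fell in limma, beside 7.27% and 8.11% of all genes. The counts at an unadjusted p under 0.05 were 3 and 1, beside 12.8% and 16% of all genes. SKIL, a TGF-beta feedback gene, was at 0.30 (adjusted p = 0.014 in limma), and at 0.052 and 0.053 in adjusted p when miR-NC replicate 2 or 3 was left out. The clock gene PER1 was at 0.52 and the chaperone gene FKBP5 at -0.29, both glucocorticoid targets, and with the mean over probe sets they lay at 0.15 and -0.07 (adjusted p = 0.11 and 0.46). The glucocorticoid targets TSC22D3 and DUSP1 did not pass at their brightest probe sets, at 0.22 and 0.10 (adjusted p = 0.066 and 0.34), and passed with the mean, at 0.34 and 0.20 (adjusted p = 0.0019 and 0.011 in limma). They had 2 of 3 and 3 of 4 probe sets higher. With the mean, 3 genes of the list rose and 0 fell, beside 8.4% and 9.34% of all genes. Over the 5 lists, 11 of 63 genes passed, or 17.5%, beside 15.4% of all genes, so the share was near the background. The lists' falls were few and became 0 to 2 without 1 sample.

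**Figure D4:**
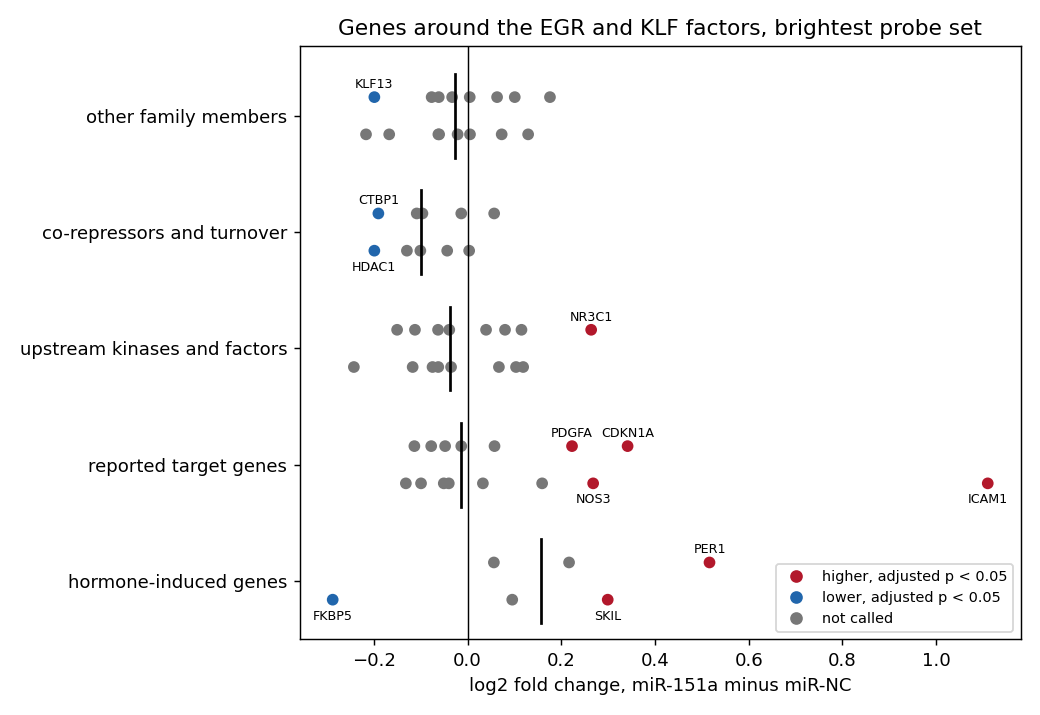
Log2 fold change of the brightest probe set of each gene in 5 lists around the EGR and KLF factors; the black bar is the list median, and named red and blue points had an adjusted p under 0.05. ICAM1 stands at 1.11, PER1 at 0.52, and the 5 list medians lie between -0.10 and 0.16.

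The genes whose levels ran most like those of KLF10 (11743682_s_at) over the 6 samples, among 10034 genes above the median level, were TNIP3, SNAPC1, BEX2, TNFAIP3 and ARMC9, with Pearson correlations of log2 levels of 0.9995, 0.9995, 0.9994, 0.9993 and 0.9992. This is a description: with samples in 2 separate groups the coefficient mostly reads the group difference, and 130 genes were above 0.99. Their log2 fold changes were 0.81, 1.22, 1.32, 1.70 and 0.36.

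Markers of other cell types and RNA quality were measured beside these results. Of 5 immune, 3 endothelial and 3 epithelial markers, 0 passed in limma at their brightest probe sets, where 7.27% of all genes rose and 8.11% fell. At an unadjusted p under 0.05, 1 (ITGAM) was higher and 1 (PECAM1) lower, beside 12.8% and 16% of all genes. ITGAM, an integrin gene of myeloid cells, lay at 0.42 there (adjusted p = 0.058), and with the mean over probe sets it was higher by 0.76 and passed (adjusted p = 0.00094 in limma), with 2 of 3 probe sets higher. The other 10 markers did not pass with the mean. Summed intensities ran from 1064 to 1146 with miR-151a and from 1033 to 1089 with miR-NC for the immune markers, of which CD68 made up most, from 102 to 110.05 and from 109 to 118 for the endothelial and from 81.7 to 94.9 and from 81.1 to 97.2 for the epithelial markers. PTPRC, CD14 and CDH1 had intensities of 10.6 or less on average in both groups, below the lower quartile of every array. The other markers were brighter. VWF, at 52.0 with miR-151a and 52.1 with miR-NC, and KRT8, at 48.6 and 47.3, lay near the glial marker SOX2, at 48.0 and 48.1. Group means of PECAM1, CD3E and EPCAM ran from 29.9 to 44.5. Of the 8 glial markers, 0 rose and 1 fell, beside 7.27% and 8.11% of all genes. NES was lower with miR-151a, at -0.31 (adjusted p = 0.0079 in limma). At an unadjusted p under 0.05 the glial counts were 0 and 2, beside 12.8% and 16% of all genes. The second was CD44, at -0.16 (adjusted p = 0.11 in limma), with 1 of 10 probe sets called lower. Control probe sets at the 3 prime end were set over those at the 5 prime end, and this log2 ratio differed by -0.11 for beta-actin (0.29 ± 0.02 against 0.40 ± 0.03, SD, n = 3, no overlap) and by 0.0063 for GAPDH, with overlap. The labels name a whole-transcript labelling protocol, under which this ratio may not read RNA quality as it does with 3 prime labelling. Their part in the results was not tested.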

How the data were processed

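Total RNA was extracted with Trizol, biotin labelled and hybridised, per the labels' protocols. The deposited values are linear intensity values per probe set, as the authors made them; the submitters' processing notes name MAS5 without its settings or role, and background correction and scaling are otherwise not given in the sources used here. No detection calls were used, so dim probe sets were kept. Arrays give no read depth, and their number (3 per group) limits the precision. Of 49395 rows, 102 control probe sets were left out. Gene names came from the platform annotation, in which 44988 probe sets named 1 gene, 1832 several and 2473 none.

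The deposited intensities were taken as log2(intensity + 1), with no further scaling, and fitted with limma 3.58.1 in R 4.3.3 on the 6 samples, with no covariate. P-values were Benjamini-Hochberg adjusted over all 49293 probe sets, or over 18132 genes at 1 probe set each (the brightest mean) for gene lists, with a threshold of 0.05. All member probe sets and all list genes that passed were described, with further list genes by their role. The members and lists were chosen with earlier results of these data known. The fitting script was tested on simulated data. Deviations of same-numbered samples correlated at -0.076, -0.12 and 0.066. With only 3 samples per group, these values cannot show whether the numbers pair the samples, and the main fit treated them as unpaired. Quantile normalization, median centring, a pseudocount of 32, a low-level filter, a variance trend with robust fit, array weights, a replicate block, no variance shrinkage, the mean over the probe sets of a gene and leaving out each sample were tried as alternatives.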

Additional observations from a re-analysis of the deposited data

How the results depend on the processing

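The 3 probe sets of KLF5, both of KLF10 and the 3 brightest of EGR1 kept their direction and their call under all alternatives run. No called member probe set, member gene or list gene changed sign. The sign changed under at least 1 alternative for 7 of all 31 member probe sets, 2 of all 9 member genes (EGR3 and KLF9) and 19 of all 63 list genes. All of these were among those not called, with values after the change between -0.08 and 0.07. Probe sets called numbered 6940, but 10649 with a variance trend and robust fit, 4378 with the replicate block, 4402 without variance shrinkage, and 4082 to 4805 without 1 sample. Genes called numbered 2788, but 4231 with the trend and robust fit, 1727 with the replicate block, and 1709 to 2017 without 1 sample. Member probe sets that fell numbered 1, but 0 with the replicate block, and 0 to 1 without 1 sample. Member genes that fell numbered 1, but 0 with the replicate block, and 0 to 1 without 1 sample. Of the 5 lists, 7 genes rose, but 3 without variance shrinkage, and 4 to 7 without 1 sample. List genes that fell numbered 4, but 8 with a pseudocount of 32, 8 with the trend and robust fit, 1 with the replicate block, and 0 to 2 without 1 sample. The block also took KLF2 (11758208_s_at) and the KLF6 probe sets 11716093_a_at and 11716094_a_at over the threshold in limma (adjusted p = 0.059, 0.078 and 0.070). With the mean over the probe sets of a gene, 4 member genes rose as before, but KLF11 was among them and KLF6 was not. The cause of these differences was not tested. Signal limits the KLF11 probe set 11747833_a_at, at a level percentile of 2.53.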
